A study of Mus musculus with 120 samples.

Results

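Expression of 8 genes of sodium and chloride transport was followed through single cells of the mouse endolymphatic sac: the sodium pump beta subunit genes Atp1b1, Atp1b2 and Atp1b3, the FXYD genes Fxyd2, Fxyd3, Fxyd4 and Fxyd6, and the cotransporter gene Slc12a2. They were taken by gene symbol from the deposited expression table, in which all 8 were present among 48371 symbols. The sacs came from embryos at E14.5. The 62 Sox9Y440X/+ cells carry 1 mutant copy of Sox9, with a stop codon at the residue in the allele's name, beside a normal copy, and the 58 WT cells carry no mutant allele. No label says which embryo a cell came from, so each genotype was treated as 1 sample. The values below have no error between animals, and no test was made. SDs are over cells.

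The sodium pump is built from a catalytic alpha subunit and a beta subunit that folds the pump and brings it to the basolateral membrane. Small single-pass FXYD proteins bind the assembled pump and tune its affinity for sodium and potassium. SLC12A2, also called NKCC1, uses the sodium gradient made by the pump to load cells with sodium, potassium and chloride. In the cochlea, the pump with the beta subunit of Atp1b2 and SLC12A2 are known for potassium secretion by the stria vascularis. The endolymphatic sac is known for sodium absorption and for ionocyte-type cells that depend on the transcription factor FOXI1 and contain the anion exchanger pendrin, encoded by Slc26a4.

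On the mm10 (GRCm38) assembly, with GENCODE positions, Atp1b1 lies on chromosome 1 (164437109 to 164458355, minus strand), Fxyd4 on chromosome 6 (117933559 to 117937692, minus strand) and Fxyd3 on chromosome 7 (31068172 to 31076704, minus strand). Chromosome 9 holds Fxyd6 (45370185 to 45396159, plus strand), Fxyd2 (45399669 to 45410278, plus strand) and Atp1b3 (96332655 to 96364442, minus strand). Fxyd2 begins 3509 bases past the annotated end of Fxyd6. No cell held both transcripts, but Fxyd2 was detected in too few cells, listed below, for that to be informative. Atp1b2 is on chromosome 11 (69599736 to 69605942, minus strand). Atp1b1 and Fxyd3 each overlap a gene on the opposite strand, Nme7 by 617 bases and Lgi4 by 2764 bases. No label states strand-specific counting, so reads from the overlaps cannot be told apart. Lgi4 reached an FPKM of 1 in 1 Sox9Y440X/+ Foxi1-negative cell and 1 WT Foxi1-positive cell. Nme7 did so in 1 of the 2 Sox9Y440X/+ and 8 of the 14 WT Foxi1-positive cells with Atp1b1, and in 6 of the 10 Sox9Y440X/+ and 6 of the 11 WT Foxi1-negative ones. With or without Atp1b1, it did so in 1 Sox9Y440X/+ and 8 WT Foxi1-positive, and 6 Sox9Y440X/+ and 7 WT Foxi1-negative cells. Among epithelial cells, Nme7 was thus nearly confined to those with Atp1b1.

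The 250 bases before the start of 3 members that the results below turn on are shown from RefSeq (GRCm38.p6), 5′ to 3′ on the strand of the gene, with any match to a searched motif in capitals. They are Fxyd3, the most frequent of the 4 FXYD members in epithelial cells (chr7:31076698-31076947, minus strand), Fxyd6, the most frequent of them in connective cells (chr9:45369935-45370184, plus strand), and Atp1b1, whose level differed between genotypes in Foxi1-positive cells (chr1:164458356-164458605, minus strand).
Fxyd3: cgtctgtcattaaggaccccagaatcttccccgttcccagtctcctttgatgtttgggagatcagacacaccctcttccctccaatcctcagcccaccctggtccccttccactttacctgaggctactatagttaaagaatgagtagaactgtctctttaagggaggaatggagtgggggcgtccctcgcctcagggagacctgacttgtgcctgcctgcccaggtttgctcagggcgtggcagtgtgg
Fxyd6: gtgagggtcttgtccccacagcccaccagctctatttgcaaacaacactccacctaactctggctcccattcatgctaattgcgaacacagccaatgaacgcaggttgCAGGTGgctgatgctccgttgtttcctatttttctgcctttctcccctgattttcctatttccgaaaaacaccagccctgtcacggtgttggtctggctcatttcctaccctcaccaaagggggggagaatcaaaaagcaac
Atp1b1: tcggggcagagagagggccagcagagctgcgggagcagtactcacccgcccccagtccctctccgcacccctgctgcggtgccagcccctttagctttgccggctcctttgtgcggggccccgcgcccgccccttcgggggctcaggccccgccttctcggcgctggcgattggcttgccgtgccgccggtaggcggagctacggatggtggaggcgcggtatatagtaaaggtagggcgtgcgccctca
The motifs searched on both strands were a forkhead core GTAAACA, a SOX core AACAAT, a Grainyhead core AACCNGTT and the E-box CAGGTG. Fxyd6 held 1 E-box, which began 142 bases before the start, and 17.2% of all 32851 RefSeq promoters held one in a window of this length. None of the 3 windows held the forkhead core, present in 3.17% of all promoters, the SOX core, present in 9.42%, or the Grainyhead core, present in 1.79%. GC content was 55.2% for Fxyd3, 50.4% for Fxyd6 and 70.4% for Atp1b1. RefSeq entries were matched for 5 of the 8 members. Among the entries not shown, those of Fxyd4 and 1 of Atp1b3 also held 1 E-box each, and another entry of Atp1b3 held none. The E-box thus did not set Fxyd6 apart from members found in epithelial cells.

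Values are FPKM, which corrects fragment numbers for the length of a transcript and the depth of a cell, and a gene was called detected from an FPKM of 1. An exact 0 can be a failed estimate: of the 115 cells kept, 2 listed Gapdh, a gene of basic metabolism, at 0. Both were Sox9Y440X/+ cells of the class named connective below, so this limit falls on that class. The summed FPKM of a cell had a median of 463017, but 2 WT Foxi1-positive cells reached 1749110 and 4444520. The 58 Sox9Y440X/+ and 57 WT cells with at least 1000 genes were used. Clusters made without the 8 members were named epithelium-like or connective (mesenchyme-like) from marker genes, and epithelium-like cells were divided by Foxi1. There were 7 Sox9Y440X/+ and 22 WT Foxi1-positive epithelial cells, 30 Sox9Y440X/+ and 34 WT Foxi1-negative epithelial cells, and 21 Sox9Y440X/+ connective cells. Only 1 WT cell was connective, so connective cells were not compared between genotypes. Connective cells held at most 1 of 14 epithelium markers and at least 2 of 14 mesenchyme markers. Epithelial cells held at most 5 of 14 mesenchyme markers, and 1 Sox9Y440X/+ Foxi1-negative cell held at least 5 of both. Around the limit for Foxi1, the lowest positive cell had 3.37 FPKM of Foxi1 and the highest negative cell 0.423 FPKM. The median number of genes per cell was 4520 in Sox9Y440X/+ and 4491.5 in WT Foxi1-positive cells, 4380 in Sox9Y440X/+ and 3046 in WT Foxi1-negative cells, and 3593 in Sox9Y440X/+ connective cells. Xist, made by the inactive X chromosome of females, was below 1 FPKM in every Sox9Y440X/+ cell and reached it in 10 WT Foxi1-positive and 24 WT Foxi1-negative cells.

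**Figure D1:**
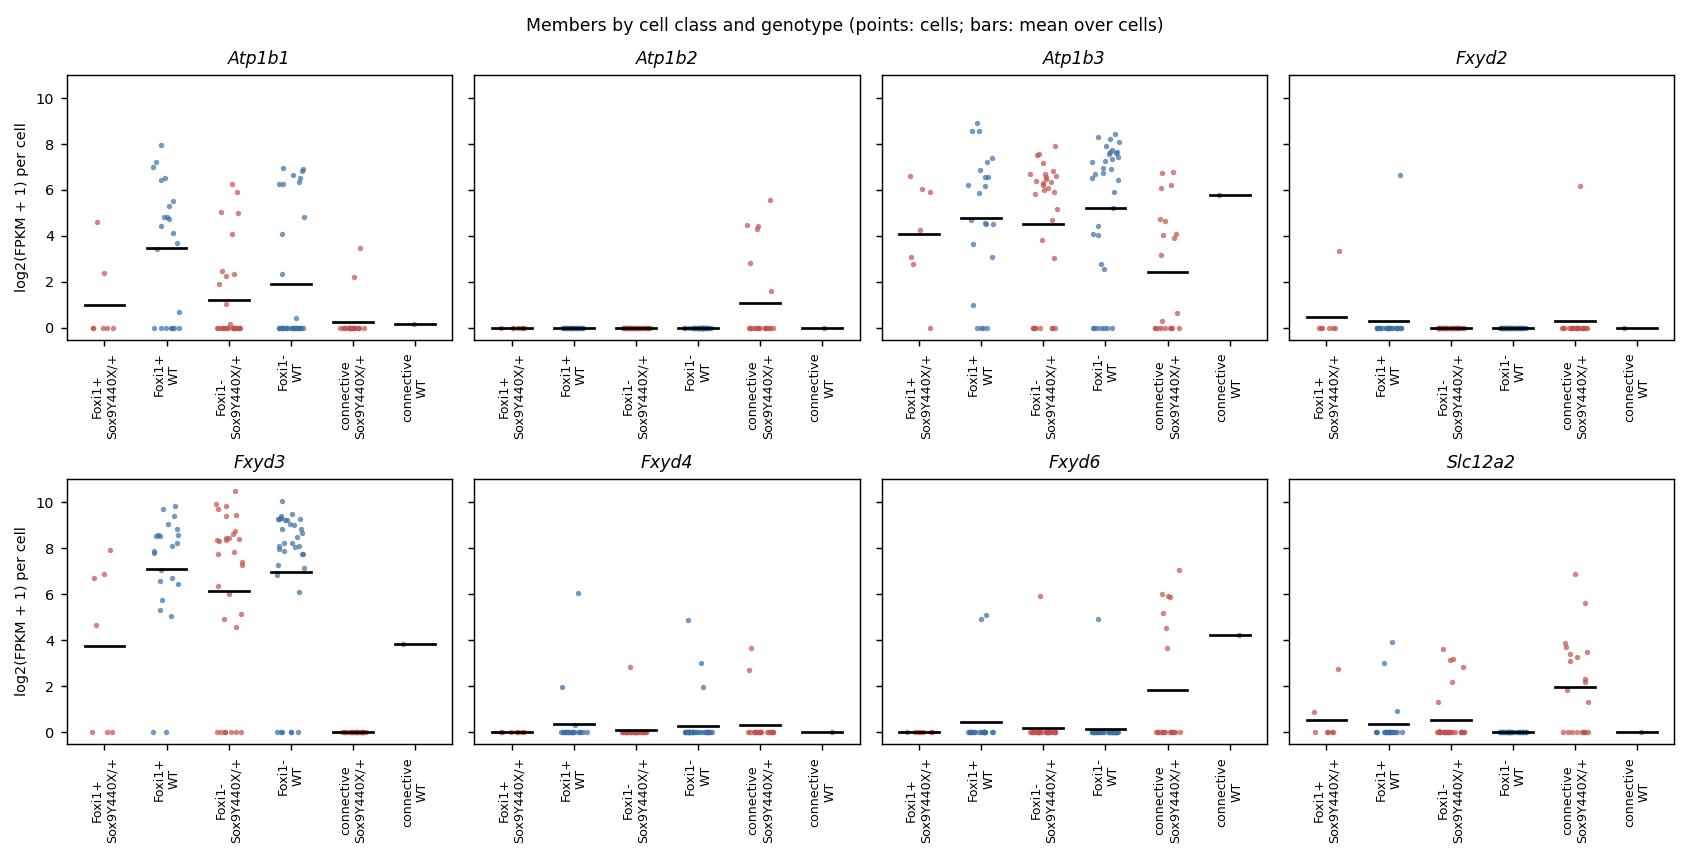
Level of each of the 8 genes, as log2(FPKM + 1) on the vertical axis, in every cell of 3 classes and 2 genotypes; points are cells and black bars are means over cells. Fxyd3 and Atp1b3 were the members found in most epithelial cells, and Atp1b2, Fxyd6 and Slc12a2 stood higher in Sox9Y440X/+ connective cells than in epithelial cells.

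Among the beta subunit genes, Atp1b3 was the common one and Atp1b1 the variable one. Atp1b1, the beta subunit gene of most transporting epithelia, had FPKM values of 0 in the lowest, 0 in the median and 23.6 in the highest of the 7 Sox9Y440X/+ Foxi1-positive cells. Those values were 0, 18.6 and 250.4 FPKM in the 22 WT Foxi1-positive cells. The ranges overlapped, but only 2 of the 7 Sox9Y440X/+ cells (28.6%, exact 95% interval 3.67% to 71.0%) had Atp1b1, at 4.19 and 23.6 FPKM, against 14 of the 22 WT cells (63.6%, 40.7% to 82.8%). These intervals cover counting error only. In Foxi1-negative cells the shares lay close together, 10 of 30 Sox9Y440X/+ cells (33.3%, 17.3% to 52.8%) and 11 of 34 WT cells (32.4%, 17.4% to 50.5%). The detected levels did not: their medians were 10.2 FPKM in the 10 Sox9Y440X/+ cells and 80.9 FPKM in the 11 WT cells. Of the 21 Sox9Y440X/+ connective cells, 2 had Atp1b1 and the highest value was 10.3 FPKM. Mean log2(FPKM + 1) was 1.0 ± 1.83 in Sox9Y440X/+ and 3.49 ± 2.85 in WT Foxi1-positive cells, 1.22 ± 2.02 in Sox9Y440X/+ and 1.90 ± 2.87 in WT Foxi1-negative cells, and 0.27 ± 0.88 in Sox9Y440X/+ connective cells. From high to low the order was WT Foxi1-positive, WT Foxi1-negative, Sox9Y440X/+ Foxi1-negative, Sox9Y440X/+ Foxi1-positive and connective, and each neighbouring pair differed by less than the SD over cells.

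Foxi1-positive cells were also divided by Slc26a4. Sox9Y440X/+ cells had only 2 Foxi1-positive cells with Slc26a4. They listed Atp1b1 at 0 and 4.19 FPKM, Atp1b3 at 7.43 and 58.8 FPKM, and Fxyd3 at 0 in both. Atp1b3 was the higher beta subunit gene in both. In WT, Atp1b1 was more frequent where Slc26a4 was present: 9 of the 11 Foxi1-positive cells with Slc26a4 had Atp1b1, with a median of 45.3 FPKM, against 5 of the 11 without Slc26a4, with a median of 0.604 FPKM. Atp1b3 and Fxyd3 had the opposite order. Atp1b3 had a median of 21.8 FPKM with Slc26a4 and 114 FPKM without it in WT cells. Fxyd3 had a median of 85.4 FPKM with Slc26a4 and 385 FPKM without it, and in the cells without it ran no lower than 223 FPKM. Atp1b1 was the beta subunit gene with the highest FPKM in 8 of 10 WT cells with Slc26a4 and a beta subunit gene (80%, 44.4% to 97.5%), against 1 of 10 without Slc26a4 (10%, 0.253% to 44.5%). The cells with Slc26a4 did not hold more genes, their median being 4391 against 4998. They differed in more than Slc26a4, however. WT cells with it all belonged to clusters 1 and 8, and those without it to clusters 3, 6 and 7. Their median of Foxi1 was 489 FPKM with Slc26a4 and 62.6 FPKM without it. The parts of cluster and Foxi1 level in these contrasts were not tested. As a description over the 22 WT cells, which share the cell's depth in all genes, Pearson's r with Slc26a4 on the log scale was 0.557 for Atp1b1, -0.519 for Atp1b3 and -0.614 for Fxyd3.

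Cluster 1, led by Foxi1, Slc26a4 and proton pump genes such as Atp6v1c2, was also compared on its own. Of its 5 Sox9Y440X/+ cells, 1 had Atp1b1, at 4.19 FPKM, whereas all 8 WT cells had it, between 16.5 and 250.4 FPKM, so the genotypes did not overlap there. The 5 Sox9Y440X/+ cells had a median of 4249 genes and the 8 WT cells 4912.5. Foxi1 itself had a median of 770.4 FPKM in the Sox9Y440X/+ cells of cluster 1 and 429 FPKM in the WT cells, while Slc26a4 was detected in 2 of the 5 Sox9Y440X/+ cells and all 8 WT cells. Atp1b3 was detected in all 5 Sox9Y440X/+ cells and 6 of the 8 WT cells.

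**Figure D2:**
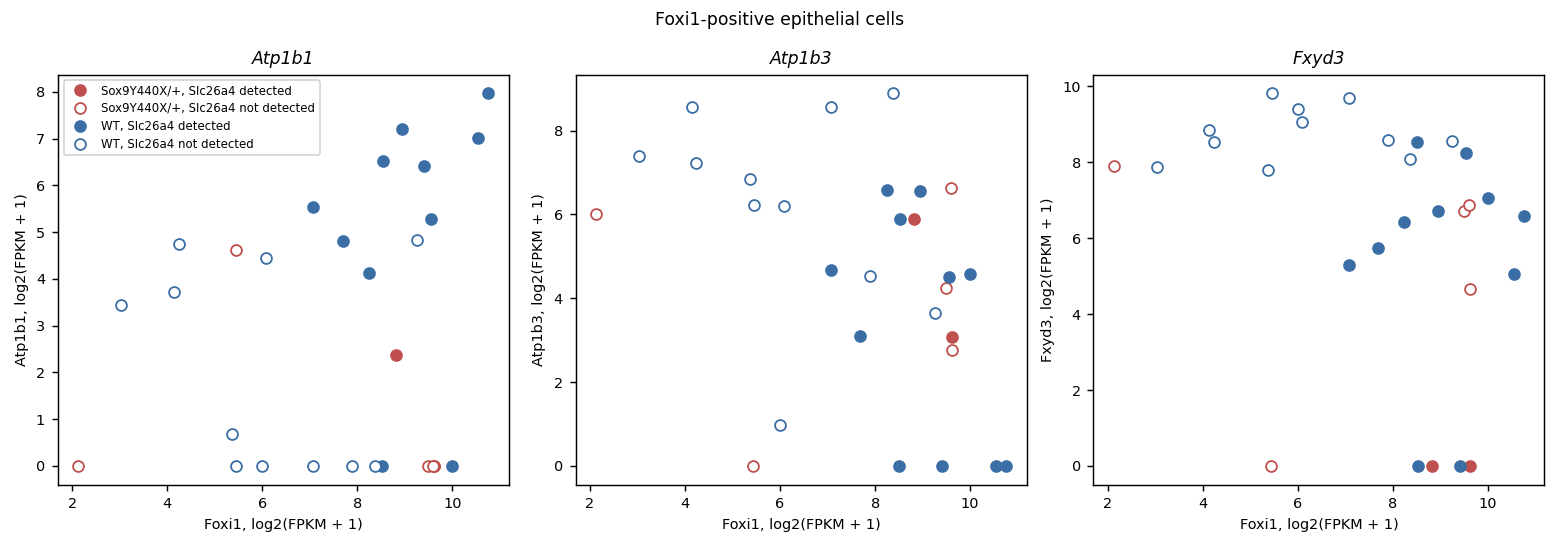
Atp1b1, Atp1b3 and Fxyd3 against Foxi1, all as log2(FPKM + 1), in the Foxi1-positive epithelial cells, with Sox9Y440X/+ cells in red and WT cells in blue; filled points have Slc26a4 at 1 FPKM or more. Of the 11 filled WT points, 9 lie at 1 FPKM or more of Atp1b1, and the median of Fxyd3 was lower for filled than open WT points (85.4 against 385 FPKM), while the 2 filled Sox9Y440X/+ points lie at 0 for Fxyd3.

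Atp1b3, a widely used beta subunit gene, had FPKM values of 0, 17.99 and 97.6 (lowest, median and highest) in Sox9Y440X/+ Foxi1-positive cells and 0, 41.5 and 475 in WT Foxi1-positive cells. In Foxi1-negative cells the values were 0, 64.7 and 239.9 FPKM for Sox9Y440X/+ and 0, 103 and 349.8 FPKM for WT. The detected shares were alike in epithelial cells, at 6 of 7 Sox9Y440X/+ and 17 of 22 WT Foxi1-positive cells, and 22 of 30 Sox9Y440X/+ and 27 of 34 WT Foxi1-negative cells. Sox9Y440X/+ connective cells had it less often, in 10 of 21, with a highest value of 108.2 FPKM. Mean log2(FPKM + 1) was 4.09 ± 2.34 in Sox9Y440X/+ and 4.77 ± 2.96 in WT Foxi1-positive cells, 4.53 ± 2.95 in Sox9Y440X/+ and 5.23 ± 3.08 in WT Foxi1-negative cells, and 2.45 ± 2.69 in Sox9Y440X/+ connective cells. The 4 epithelial means lay within their SDs of each other, and the connective mean was the lowest. Atp1b3 was the beta subunit gene with the highest FPKM in 6 of 7 Sox9Y440X/+ and 11 of 20 WT Foxi1-positive cells with any beta subunit gene, and in 22 of 23 Sox9Y440X/+ and 24 of 27 WT Foxi1-negative cells. Both Atp1b1 and Atp1b3 were present together in 1 of 7 Sox9Y440X/+ and 11 of 22 WT Foxi1-positive cells, and in 9 of 30 Sox9Y440X/+ and 11 of 34 WT Foxi1-negative cells.

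Atp1b2, the beta subunit gene of nervous tissue and cochlear marginal cells, was detected in 6 of the 21 Sox9Y440X/+ connective cells (28.6%, 11.3% to 52.2%), at 2.02, 6.14, 18.9, 20.4, 21.3 and 46.7 FPKM. It was listed at 0 in all 93 epithelial cells, 0 of 37 in Sox9Y440X/+ and 0 of 56 in WT, which allows shares of up to 8.11% and 5.36%. Such limits are 3 cells over the number of cells, and they bound cells listed at 1 FPKM or more, not cells that express the gene. All 6 cells belonged to cluster 4, the larger of the 2 connective clusters, and it was the highest beta subunit gene in 5 of the 14 connective cells with any. The 6 cells had a median of 4266 genes, against 3543 in the 15 without Atp1b2.

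**Figure D3:**
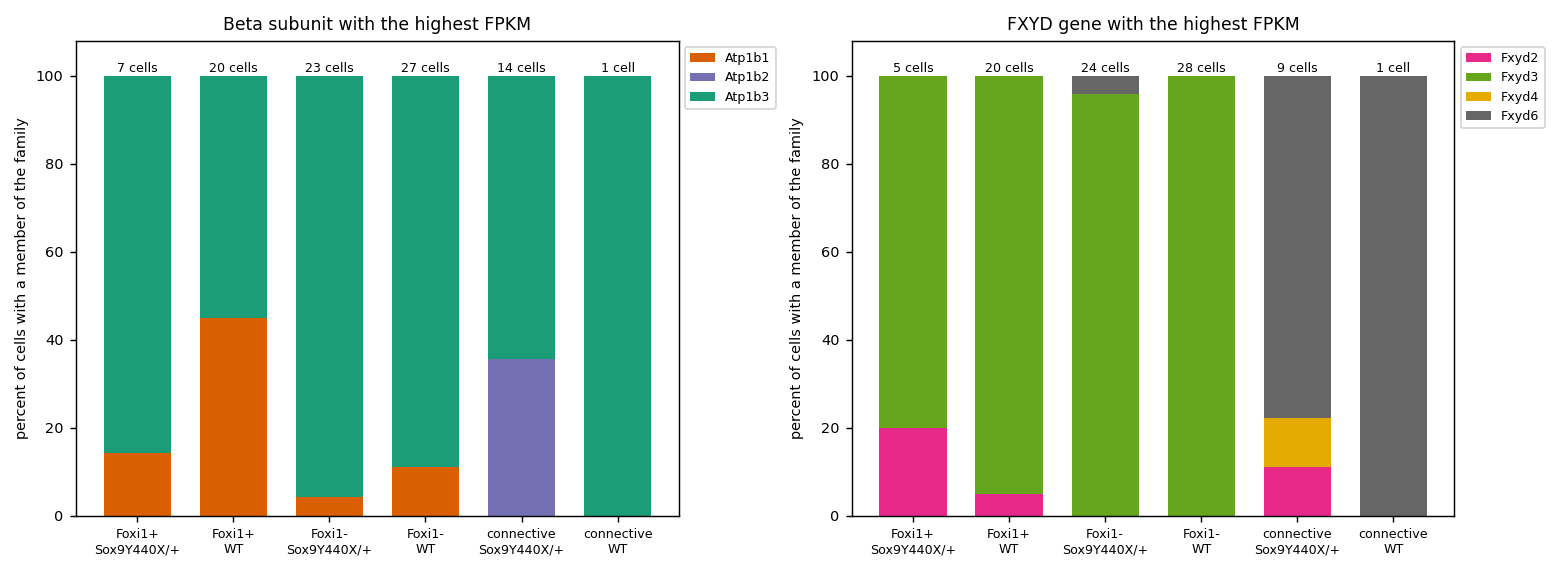
Share of cells, in percent of those with any member of the family, in which each beta subunit gene (left) or FXYD gene (right) had the highest FPKM, by class and genotype, with the number of cells above each bar. Atp1b1 took 14.3% of Sox9Y440X/+ and 45% of WT Foxi1-positive cells, and Fxyd6 was the most frequent highest of the 4 FXYD members in Sox9Y440X/+ connective cells.

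Fxyd3, known also as Mat-8 and typical of epithelia, was the most frequent of the 4 FXYD members in the sac epithelium. Its FPKM values were 0, 24.1 and 240.4 (lowest, median and highest) in Sox9Y440X/+ Foxi1-positive cells and 0, 252 and 904 in WT Foxi1-positive cells. They were 0, 219.8 and 1445 FPKM in Sox9Y440X/+ Foxi1-negative cells and 0, 287 and 1055 FPKM in WT Foxi1-negative cells. Sox9Y440X/+ Foxi1-positive cells stood lowest of these 4 groups, though the ranges overlapped. Fxyd3 was detected in 4 of 7 Sox9Y440X/+ (57.1%, 18.4% to 90.1%) and 20 of 22 WT Foxi1-positive cells (90.9%, 70.8% to 98.9%), and in 23 of 30 Sox9Y440X/+ (76.7%, 57.7% to 90.1%) and 28 of 34 WT Foxi1-negative cells (82.4%, 65.5% to 93.2%). It was listed at 0 in all 21 Sox9Y440X/+ connective cells, which allows a share of up to 14.3%, while the single WT connective cell had 13.4 FPKM. Mean log2(FPKM + 1) was 3.74 ± 3.63 in Sox9Y440X/+ and 7.09 ± 2.67 in WT Foxi1-positive cells, 6.13 ± 3.73 in Sox9Y440X/+ and 6.97 ± 3.38 in WT Foxi1-negative cells, and 0 in Sox9Y440X/+ connective cells. From high to low the order was WT Foxi1-positive, WT Foxi1-negative, Sox9Y440X/+ Foxi1-negative, Sox9Y440X/+ Foxi1-positive and connective. Neighbours in that order differed by less than the larger of their SDs, except the last pair, where no connective cell had the gene.

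Fxyd3 was the highest of the 4 FXYD genes in 4 of 5 Sox9Y440X/+ and 19 of 20 WT Foxi1-positive cells with any of them, and in 23 of 24 Sox9Y440X/+ and all 28 WT Foxi1-negative cells. In clusters 3 and 6, the largest epithelial clusters, it was found in every cell of both genotypes. Cluster 3 had a median of 341 FPKM in 11 Sox9Y440X/+ cells and 377 FPKM in 11 WT cells. Cluster 6 had a median of 507 FPKM in 6 Sox9Y440X/+ cells and 483 FPKM in 22 WT cells. Its level was thus close between genotypes within these clusters. Cluster 2, with 10 Sox9Y440X/+ cells and 1 WT cell and led by Fam132a and Aldh1a3, had Fxyd3 in 5 of the Sox9Y440X/+ cells and in the WT cell. Cluster 8 held 10 WT cells and no Sox9Y440X/+ cell, with a median of 2057.5 genes, and had Fxyd3 in 4 of them.

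Fxyd6, or phosphohippolin, is best known from the nervous system. It was detected in 7 of 21 Sox9Y440X/+ connective cells (33.3%, 14.6% to 56.97%), at FPKM values from 11.6 to 132, and in the single WT connective cell, at 17.8 FPKM. Among epithelial cells it was found in 1 of 37 Sox9Y440X/+ cells, at 60.01 FPKM, and in 3 of 56 WT cells, at 29.4, 29.6 and 32.9 FPKM. The 3 WT cells all belonged to cluster 3, and the levels lay inside the range of the connective cells. In connective cells Fxyd6 was the highest FXYD member in 7 of the 9 Sox9Y440X/+ cells with any, and the cells with it had a median of 4897 genes, against 3456 in the 14 without it.

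Fxyd2, the gamma subunit gene of the kidney pump, was seen in 3 cells in all. A Sox9Y440X/+ Foxi1-positive cell had 9.23 FPKM, a WT Foxi1-positive cell 101.1 FPKM and a Sox9Y440X/+ connective cell 72.1 FPKM. Both Foxi1-positive cells belonged to cluster 1 and had Slc26a4. The connective cell was also the one with the highest Slc12a2. Fxyd4, also called CHIF and known from kidney collecting duct and colon, was found in 0 of 7 Sox9Y440X/+ Foxi1-positive cells, which allows a share of up to 42.9%, and in 2 of 22 WT Foxi1-positive cells, at 2.97 and 65.3 FPKM. It was found in 1 of 30 Sox9Y440X/+ Foxi1-negative cells, at 6.07 FPKM, in 3 of 34 WT Foxi1-negative cells, at 2.90, 7.18 and 28.2 FPKM, and in 2 of 21 Sox9Y440X/+ connective cells, at 5.54 and 11.9 FPKM. Neither gene separated the classes at these numbers.

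Slc12a2, which lies on chromosome 18 (57878678 to 57946821, plus strand), was most frequent in connective cells. It was detected in 12 of 21 Sox9Y440X/+ connective cells (57.1%, 34.02% to 78.2%), with values of 0, 2.57 and 118 FPKM in the lowest, median and highest cell. The cell at 118 FPKM had 1773 genes and only 0.405 FPKM of Gapdh, and it made up 49.3% of the summed FPKM of the class. In Sox9Y440X/+ epithelium, 1 of 7 Foxi1-positive cells had it, at 5.65 FPKM, and 6 of 30 Foxi1-negative cells, at 1.45, 3.51, 6.07, 7.72, 8.06 and 11.3 FPKM. In WT epithelium, 2 of 22 Foxi1-positive cells had it, at 7.06 and 14.3 FPKM, and 0 of 34 Foxi1-negative cells, which allows a share of up to 8.82%. Of the 6 Sox9Y440X/+ Foxi1-negative cells, 5 belonged to cluster 2, which held only 1 WT cell. Of the 12 connective cells with Slc12a2, 6 also had Atp1b3, 5 Fxyd6 and 4 Atp1b2, and none had Fxyd3. At least 1 of Atp1b2, Fxyd6 and Slc12a2 was present in 15 of the 21 Sox9Y440X/+ connective cells, in 7 of the 37 Sox9Y440X/+ epithelial cells and in 4 of the 56 WT epithelial cells. Each of the 3 was more frequent in connective cells of these same data, so the pooled counts had to differ and are no support.

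**Figure D4:**
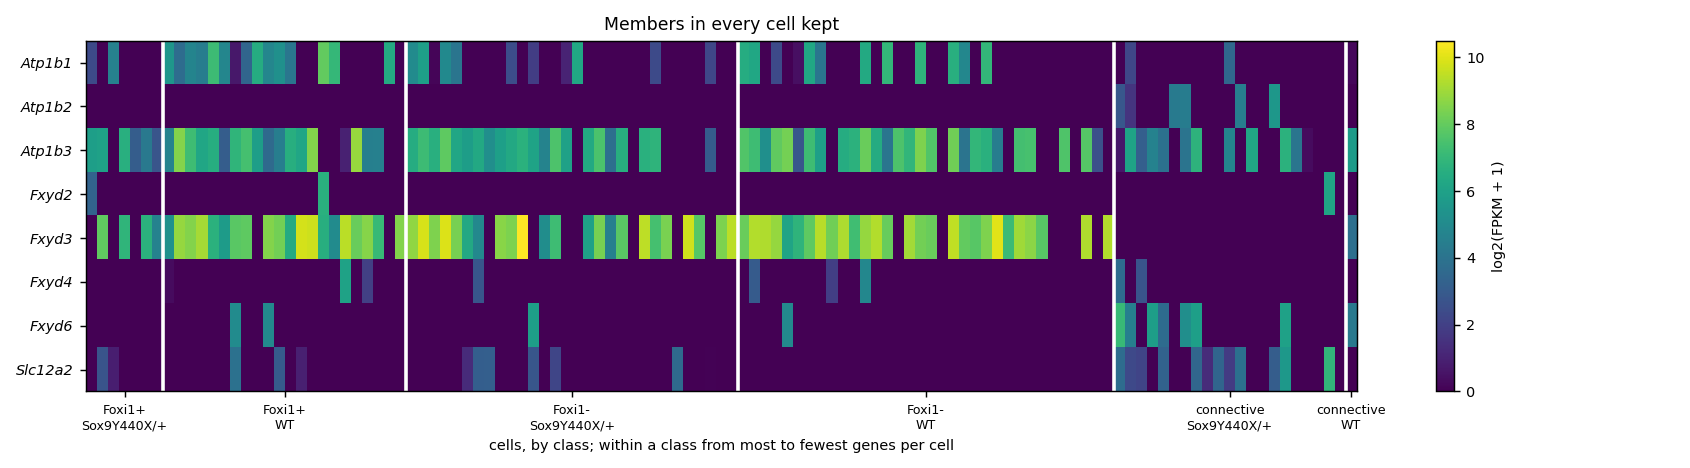
Each column is a cell and each row a gene, coloured by log2(FPKM + 1), with cells grouped by class and genotype and ordered within a group from most to fewest genes. Fxyd3 and Atp1b3 fill most epithelial columns, Fxyd3 is dark in all 21 Sox9Y440X/+ connective columns, and Slc12a2, Fxyd6 and Atp1b2 appear there.

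Classes and genotypes were then compared by differences of mean log2(FPKM + 1), which understate differences of low genes. The background was every gene that reached 1 FPKM in 25% or more of the cells in 1 of the groups compared. A difference of 1 log2 unit or more was counted. In Sox9Y440X/+, Foxi1-positive minus Foxi1-negative cells, 3 of the 8 members reached the detection limit. Of these, 1 passed 1 log2 unit, Fxyd3, with a difference of -2.39. Among all 7664 genes tested, 37% passed in either direction, 26.5% higher and 10.5% lower, with a median of 0.36. Atp1b1 differed by -0.22 there. Among cells with 2500 to 5500 genes, 6 Foxi1-positive and 21 Foxi1-negative, the difference of Fxyd3 was -0.85. In WT, 3 members reached the detection limit, of which 1 was higher, Atp1b1 by 1.59, and none lower, while 29.1% of the 5868 genes tested passed in either direction, 25.4% higher and 3.68% lower. The median difference of all genes was 0.48. Atp1b1 was below the limit with a pseudocount of 10, at 0.66, and as a ratio of mean FPKM, at 0.76. Atp1b3 differed by -0.46 and Fxyd3 by 0.12, but both passed the limit as lower when Foxi1-positive cells were required to have other ionocyte genes, at -1.93 and -1.28, and among WT cells without Xist, at -1.05 and -2.10.

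Between genotypes, in Foxi1-negative cells, Sox9Y440X/+ minus WT, none of the 8 members, of which 3 reached the detection limit, passed 1 log2 unit, against 24.1% of 5821 genes, 21.5% higher and 2.58% lower. Those 3 were all lower in Sox9Y440X/+, with differences of -0.68 for Atp1b1, -0.70 for Atp1b3 and -0.84 for Fxyd3, where the median of all genes was 0.49 and the cells differed in depth as given above. Among cells with 2500 to 5500 genes, 21 Sox9Y440X/+ and 25 WT, the differences were -1.54, -1.54 and -2.55. Against the 10 WT Foxi1-negative cells without Xist, Atp1b3 differed by -1.33 and Fxyd3 by -2.43. Without cluster 8 the 3 values were -1.17, -1.68 and -2.02, whereas within cluster 6 Fxyd3 differed by 0.14. The genotypes share the clusters unequally, and the part of cluster make-up in these values was not tested.

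In Foxi1-positive cells, Sox9Y440X/+ minus WT, 3 of the 8 members reached the detection limit. Of these, 2 were lower by 1 log2 unit or more, Atp1b1 at -2.49 and Fxyd3 at -3.35. Among all 7622 genes tested, 36.1% passed in either direction, 26.1% higher and 10.1% lower. Only 0.656% of tested genes lay below Atp1b1 and 0.131% below Fxyd3. Atp1b3 differed by -0.68. Within cluster 1 the differences were -5.58 for Atp1b1, -1.86 for Fxyd3 and 0.61 for Atp1b3, so the sign of Atp1b3 was not kept. It was also 0.42 with Foxi1 from an FPKM of 100 and 1.23 with other ionocyte genes required. The 7 Sox9Y440X/+ cells included 5 of cluster 1, against 8 of 22 in WT, and 2 with Slc26a4, against 11 of 22.

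Connective minus epithelial cells of Sox9Y440X/+ embryos gave 3 higher members, Fxyd6 by 1.66, Slc12a2 by 1.42 and Atp1b2 by 1.11, and 2 lower, Fxyd3 at -5.67 and Atp1b3 at -1.996. Of the 8 members, 6 reached the detection limit. Of 6620 genes, 37.7% passed in either direction, 12.9% higher and 24.9% lower. Atp1b2, Fxyd6 and Slc12a2 reached the detection limit only in connective cells and Fxyd3 only in epithelial cells, so each could be counted in 1 direction alone and the count is no support. With a pseudocount of 10, Fxyd6 was at 0.75, Slc12a2 at 0.52 and Atp1b2 at 0.39. Taking only the 7 cells of cluster 5 as connective left Atp1b2 at 0 and Fxyd6 at 0.70. Leaving out the highest cell of each class moved Atp1b2 to 0.88.

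**Figure D5:**
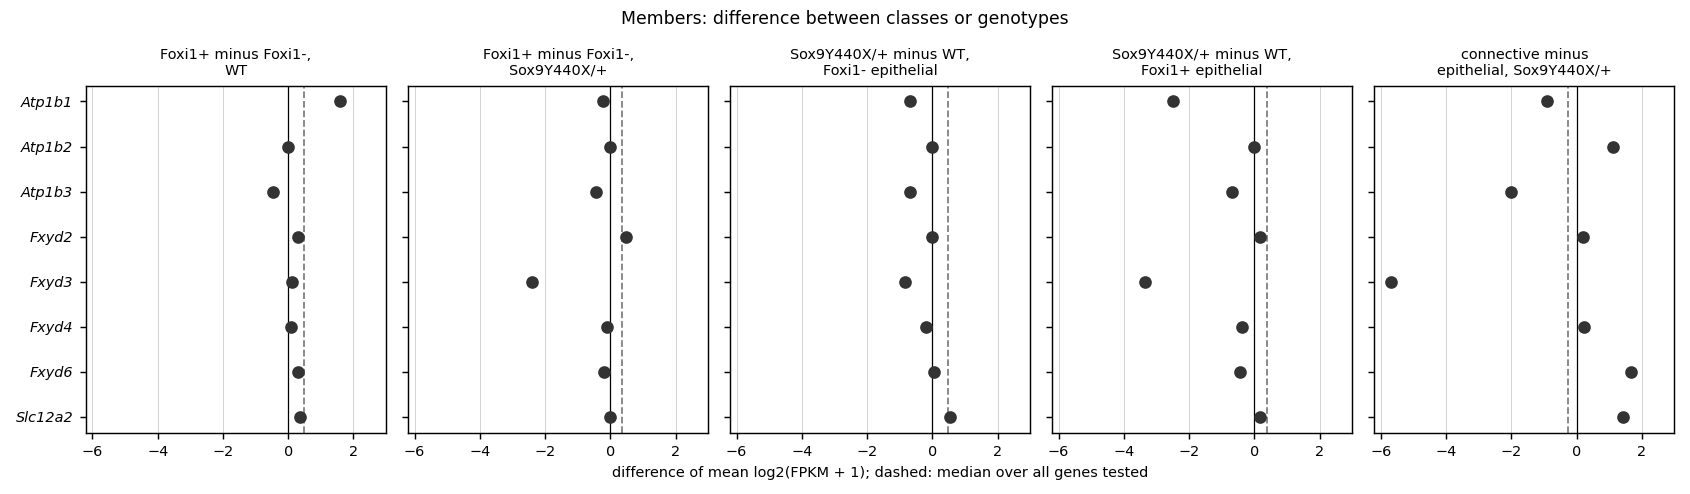
Difference of mean log2(FPKM + 1) for each member in 5 comparisons, each panel naming what was subtracted from what; the dashed line is the median over all genes tested. Points left of 0 are lower in the group named first. Fxyd3 in connective cells lies farthest left, at -5.67.

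Other genes of the same transport system, listed by function, are given by their counts. Of 15 other pump subunits and partners, 2 were higher by 1 log2 unit or more in Sox9Y440X/+ connective than epithelial cells, Fxyd5 (dysadherin) by 1.77 and Fxyd1 (phospholemman) by 1.31, where 12.9% of all genes tested were higher. Both reached the detection limit only in connective cells, so each could be counted as higher alone and the count is no support. In those connective cells Fxyd5 averaged 60.3 FPKM, Fxyd1 25.8 FPKM and Fxyd6 18.2 FPKM, and 58.3% of the summed Fxyd5 came from 1 cell. Fxyd5 was detected in 6 of 21 Sox9Y440X/+ connective cells and in 0 of 37 Sox9Y440X/+ epithelial cells.

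Of 30 genes of sodium, potassium, chloride and water pathways, 4 were higher by 1 log2 unit and 1 lower in Sox9Y440X/+ Foxi1-positive than Foxi1-negative cells, and 5 were higher and none lower in WT. Of all genes tested, 26.5% were higher in Sox9Y440X/+ and 25.4% in WT, and the same shares stand behind the counts of the other lists in this comparison. Of the 30, 8 reached the detection limit in Sox9Y440X/+ and 7 in WT. The list's median difference was 0 in Sox9Y440X/+ and 0.08 in WT, against 0.36 and 0.48 for all genes tested. Bsnd (barttin, an accessory subunit of chloride channels) was higher by 2.57 in Sox9Y440X/+ and 3.32 in WT, and Slc9a3r1 (the scaffold NHERF1) by 2.94 in Sox9Y440X/+ and 2.99 in WT. Bsnd was detected in 3 of 7 Sox9Y440X/+ and 11 of 22 WT Foxi1-positive cells, and in 0 of 30 Sox9Y440X/+ and 0 of 34 WT Foxi1-negative cells. It reached the detection limit only in Foxi1-positive cells, so it could be counted as higher alone. Bsnd and Slc9a3r1 had positive differences in both genotypes, whereas Atp1b1 was at -0.22 in Sox9Y440X/+ and 1.59 in WT. Kcnq1, a potassium channel gene, was listed at 0 in the 7 Sox9Y440X/+ Foxi1-positive cells and found in 8 of 22 WT ones, a difference of -1.65. It reached the detection limit only in the WT cells there, so it could be counted as lower alone. In that comparison of genotypes, 2 of the 30 were lower and none higher, against 10.1% and 26.1% of 7622 genes.

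Of 16 cation-chloride cotransporters and their kinases, 1 was higher in Foxi1-positive than Foxi1-negative cells of each genotype, the kinase gene Wnk4, by 1.86 in Sox9Y440X/+ and 2.07 in WT. Between connective and epithelial cells of Sox9Y440X/+, 5 of the 16 reached the detection limit. None of the 16 passed 1 log2 unit there, against 37.7% of 6620 genes in either direction. Of 11 genes of corticosteroid and sodium-handling control, 2 were higher in Foxi1-positive cells of each genotype: Sgk1, a kinase gene that promotes sodium transport, by 1.78 in Sox9Y440X/+ and 2.87 in WT, and Nedd4l, a ubiquitin ligase gene that removes sodium channels, by 2.50 in Sox9Y440X/+ and 2.09 in WT. Wnk4 and Nedd4l reached the detection limit only in Foxi1-positive cells of each genotype, so they could be counted as higher alone. In Foxi1-negative cells Sgk1 and the clock gene Per1 were higher in Sox9Y440X/+ than in WT by 1.95 and 1.97, where 21.5% of all genes tested were higher. Of 18 ionocyte genes, 9 were higher in Sox9Y440X/+ and 12 in WT Foxi1-positive cells, but Foxi1 itself is among them and defined the cells. Only Car2 of the 18 reached the detection limit in Foxi1-negative cells of either genotype. The others could thus be counted as higher alone, and these counts are no support. The median difference of the pump partners was 0 in both genotypes. It was 0 in Sox9Y440X/+ and 0.01 in WT for the cotransporter list, 0 in Sox9Y440X/+ and 0.09 in WT for the control list, and 1.08 in Sox9Y440X/+ and 2.72 in WT for the ionocyte list.

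For members found in at least 25% of WT epithelial cells, the genes of most similar level over the 56 cells were looked up among those with a Pearson r of at least 0.6. Atp1b1 had 1, Grb10, with r of 0.142 over the 37 Sox9Y440X/+ epithelial cells and 0.621 over the WT cells. Atp1b3 had 2, Ndufa7 (0.367 in Sox9Y440X/+, 0.622 in WT) and Gpx4 (0.408 in Sox9Y440X/+, 0.614 in WT). Fxyd3 had 6, led by Smpd1 (0.168 in Sox9Y440X/+, 0.689 in WT), Ctsb (0.260 in Sox9Y440X/+, 0.664 in WT) and H2-D1 (0.725 in Sox9Y440X/+, 0.633 in WT). H2-D1 was the 1 of the 6 genes named here whose r was above 0.6 in both genotypes. All genes of a cell share its depth, and the members' own r with the number of genes per cell was 0.448 for Atp1b1, 0.370 for Atp1b3 and 0.190 for Fxyd3.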

How the data were processed

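Smart-seq2 libraries of single cells from E14.5 endolymphatic sacs were used as 1 table of FPKM values deposited by the authors. The build mm10, Cufflinks, HTSeq, HISAT2 and SAMtools 0.1.18 appear in the submitters' processing notes; settings and annotation were not given in the sources used here. FPKM carries no counts, so a cell's depth is known only through the number of genes in its label.

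Entries of 1 symbol were summed, and cells with at least 1000 labelled genes kept (58 of 62 Sox9Y440X/+, 57 of 58 WT). Clusters came from Ward linkage on 15 principal components of log2(FPKM + 1) of the 1500 most variable genes, the 8 members left out, divided into 8 and named from marker lists. Differences are of mean log2(FPKM + 1), with a pseudocount of 1, checked on simulated data. Intervals are exact Clopper-Pearson at 95%, and limits for a count of 0 are 3 cells over the number of cells. Doublets were not called; cells with markers of both classes were counted. The number of samples per genotype was 1, so no test was made. All 8 members were described; some genes of the other lists are counted but not reported here by name. Of each other list, up to 4 genes with the largest differences were named, among those reaching 1 FPKM in 25% or more of the cells in 1 of the groups. The members and lists, and the use of Slc26a4 and of single clusters, were chosen with earlier results of these data known. Alternatives covered pseudocounts, filters on cells, limits for Foxi1, clusterings and single clusters. Python 3.11.15, numpy 2.4.6, pandas 2.3.3 and SciPy 1.17.1 were used.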

Additional observations from a re-analysis of the deposited data

How the results depend on the processing

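No paired analysis was possible because labels number single cells and each genotype is 1 sample, so no replicate could be left out either. The 9 member differences of 1 log2 unit or more kept their sign, except that Atp1b2 was at 0 with cluster 5 as connective, and 135 of their 144 recomputed values were still past that limit. Smaller differences did change sign: Fxyd3 between Foxi1 classes in WT, Fxyd3 between genotypes in Foxi1-negative cells (cluster 6 alone), Atp1b3 between genotypes in Foxi1-positive cells, and several of members under the detection limit. The number of members past 1 log2 unit moved by more than 1.5 times as follows, and by no more elsewhere. For Sox9Y440X/+ minus WT in Foxi1-negative cells (0 members), it was 2 (1 higher, 1 lower) with a pseudocount of 0.1 and with the ratio of mean FPKM, 2 (both lower) against WT cells without Xist, 1 (lower) among cells with at least 2000 genes and 3 (all lower) among cells with 2500 to 5500 genes. For Sox9Y440X/+ minus WT in Foxi1-positive cells (2 lower), the ratio of means gave 6, all lower. For Foxi1-positive minus Foxi1-negative cells in WT (1 higher), it was 0 with a pseudocount of 10, 2 (1 higher, 1 lower) with Foxi1 from an FPKM of 100, 3 (all higher, Atp1b1 not among them) with the ratio of means, and 3 (1 higher, 2 lower) without Xist or when other ionocyte genes were required. In Sox9Y440X/+ (1 lower) it was 3 (1 higher, 2 lower) with the ratio of means and 0 among cells with 2500 to 5500 genes. For connective minus epithelial cells (3 higher, 2 lower), a pseudocount of 10 gave 2, both lower. Of the alternatives chosen after seeing the data, cluster 6 alone gave 2 and leaving out cluster 8 gave 3, all lower, in Foxi1-negative cells between genotypes. The share of Sox9Y440X/+ Foxi1-positive cells led by Fxyd3 was 100% with isoforms counted from an FPKM of 10 or among cells with 2500 to 5500 genes, against 80%. The share led by Atp1b1 was 0% in Sox9Y440X/+ Foxi1-positive cells with Foxi1 from an FPKM of 100 or with other ionocyte genes required, against 14.3%, and 81.8% against 45% in WT with those genes required. Without Xist, the share in WT Foxi1-negative cells was 0%, against 11.1%. The cause of these moves was not tested. With 7 Sox9Y440X/+ Foxi1-positive cells, 1 WT connective cell and unknown animals, small differences were not detectable.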

Other observations

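The single WT connective cell, too few for any comparison, had 53.5 FPKM of Atp1b3, 17.8 FPKM of Fxyd6 and 13.4 FPKM of Fxyd3, with 10 of 14 mesenchyme and 0 of 14 epithelium markers. It was the only connective cell with Fxyd3. It also held 33.8 FPKM of Fxyd5. The 4 Sox9Y440X/+ cells and 1 WT cell left out for low gene number listed all 8 members at 0.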
